A study of Mus musculus with 20 samples.

Results

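Genes of the MHC class II antigen presentation pathway (H2-Aa, H2-Ab1, H2-Eb1, H2-DMa, H2-DMb1, Cd74, and Ciita) were followed in left ventricular tissue. They were chosen by gene symbol, and all 7 were found among the 15956 genes of the count table. RNA sequencing had been performed on 20 male mice, 5 in each of 4 diet groups. NP mice ate normal protein, LP mice low protein, HF mice a high-fat diet with normal protein, and HF + LP mice a high-fat diet with low protein. The diets were casein-based. Within a fat content they were designed to be isocaloric, with protein lowered by reducing casein and carbohydrate raised in its place. No transgene or gene deletion is named, the strain is not given in the sources used here, and each library is labelled with 1 animal number. The library of LP mouse 5 is titled as a second sample of its animal. According to the labels all mice were 18 months old, whereas the study's methods place tissue collection earlier. Total counts lay between 12559607 and 23331907 per library, and intervals given here rest on the spread between mice.

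MHC class II molecules carry peptides from endocytosed material to the cell surface and show them to CD4+ T cells. An alpha chain and a beta chain pair in the endoplasmic reticulum around the invariant chain, endosomal proteases then degrade the invariant chain, and the H2-DM dimer exchanges its remnant for peptide. Transcription of these genes depends on the transactivator Ciita, which has no DNA-binding activity of its own and joins RFX, CREB, and NF-Y factors at the promoters. In the heart, class II molecules are known mainly from macrophages, dendritic cells, and B cells rather than from cardiomyocytes.

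No member was called in any diet comparison. The LP group held both the mice with the highest and the mouse with the lowest class II levels. H2-Aa, H2-Ab1, H2-Eb1, H2-DMa, and Cd74 followed each other closely across mice, and over all 20 mice r was lower for the pairs with H2-DMb1.

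Of the 7 genes, 5 lie together on mouse chromosome 17, within 197 kb of GRCm38 (34119541 to 34316674), the build named in the submitters' processing notes. These are H2-DMa (34119541 to 34139101), H2-DMb1 (34153072 to 34160230), H2-Ab1 (34257689 to 34269419), H2-Aa (34282744 to 34287823), and H2-Eb1 (34305867 to 34316674). H2-Aa is on the minus strand and the other members are on the plus strand. The genes outside this cluster are placed where they are described. QuantSeq reads come from the 3′ end of transcripts, and of the 75-base words in the last 500 bases of the annotated transcripts, 15.7% of those of H2-DMb1 also occurred in its neighbor H2-DMb2 (67 of 426). The other members shared none. How the counting treated reads shared by these genes is not given in the sources used here, so H2-DMb1 values are uncertain to that extent. H2-DMa overlaps Brd2 on the opposite strand and CR974462.3 on its own strand. H2-Eb1 overlaps the antisense gene Gm20513, and Ciita overlaps Dexi on the opposite strand. Whether the counting used strand is not given either.

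Promoter windows (RefSeq, GRCm38.p6) were matched for 4 of the 7 members, namely H2-Aa, H2-Eb1, H2-DMa, and H2-DMb1. The sequences of H2-Aa and H2-Eb1 are shown because these chains were the pair that moved together most closely across mice. Capitals mark the letters GCAAC and, 25 to 30 bases further, ATTGG, which were searched as a spaced pair on the strand of the gene. They stand for the X box and the Y box of class II promoters, and ATTGG is the reverse complement of the CCAAT letters that NF-Y binds. The letters and the spacing were settled after promoters of this family had been looked at.
H2-Aa, chr17:34287824-34287943, minus strand: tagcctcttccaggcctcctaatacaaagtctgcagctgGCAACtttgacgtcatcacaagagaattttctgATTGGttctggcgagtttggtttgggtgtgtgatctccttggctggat
H2-Eb1, chr17:34305747-34305866, plus strand: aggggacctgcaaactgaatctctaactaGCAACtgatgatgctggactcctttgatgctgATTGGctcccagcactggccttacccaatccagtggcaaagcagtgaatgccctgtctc
In H2-Aa the pair begins 81 and 48 bases before the start site, with 28 bases between the motifs. In H2-Eb1 it begins 91 and 59 bases before the start, with 27 bases between them. The 5-letter motifs alone are common, since GCAAC occurred on either strand in 29.9% of 32851 promoter windows and ATTGG in 33.8%. The spaced pair occurred in 43 windows (0.131%), among them those of the relatives H2-Oa, H2-Ob, and H2-Eb2 but not that of the relative H2-DMb2. The H2-DMb1 window held ATTGG 61 bases before the start but no spaced pair, and neither window of H2-DMa held the pair.

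The levels of the members differed widely. Counts were scaled to a common library size (normalized read count), and a 3′ count does not grow with transcript length, so levels of different genes were compared without a length correction. Differences in how well each 3′ end is captured were not measured. The mean over the 20 mice was 2089 normalized reads for H2-Aa, which encodes the alpha chain of the I-A molecule. It was 1241 for Cd74 (the invariant chain), 1230 for H2-Eb1 (the beta chain of I-E), and 1003 for H2-Ab1 (the beta chain of I-A). The peptide-exchange chains were lower, at 89.5 for H2-DMa and 53.5 for H2-DMb1, and Ciita stood at 3.54. H2-Aa was higher than Cd74 and than H2-Eb1 in 20 of 20 mice, and H2-Eb1 was higher than H2-Ab1 in 19. Cd74 and H2-Eb1 did not have a fixed order, since Cd74 was the higher of the pair in 8 mice and H2-Eb1 in 12. H2-DMa was higher than H2-DMb1 in 18 mice. Together the 7 genes took 0.0269% ± 0.00333 (SD, n = 5) of the reads of NP mice and 0.0428% ± 0.0213 of those of LP mice. For HF and HF + LP mice the shares were 0.0340% ± 0.00809 and 0.0322% ± 0.00855.

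**Figure D1:**
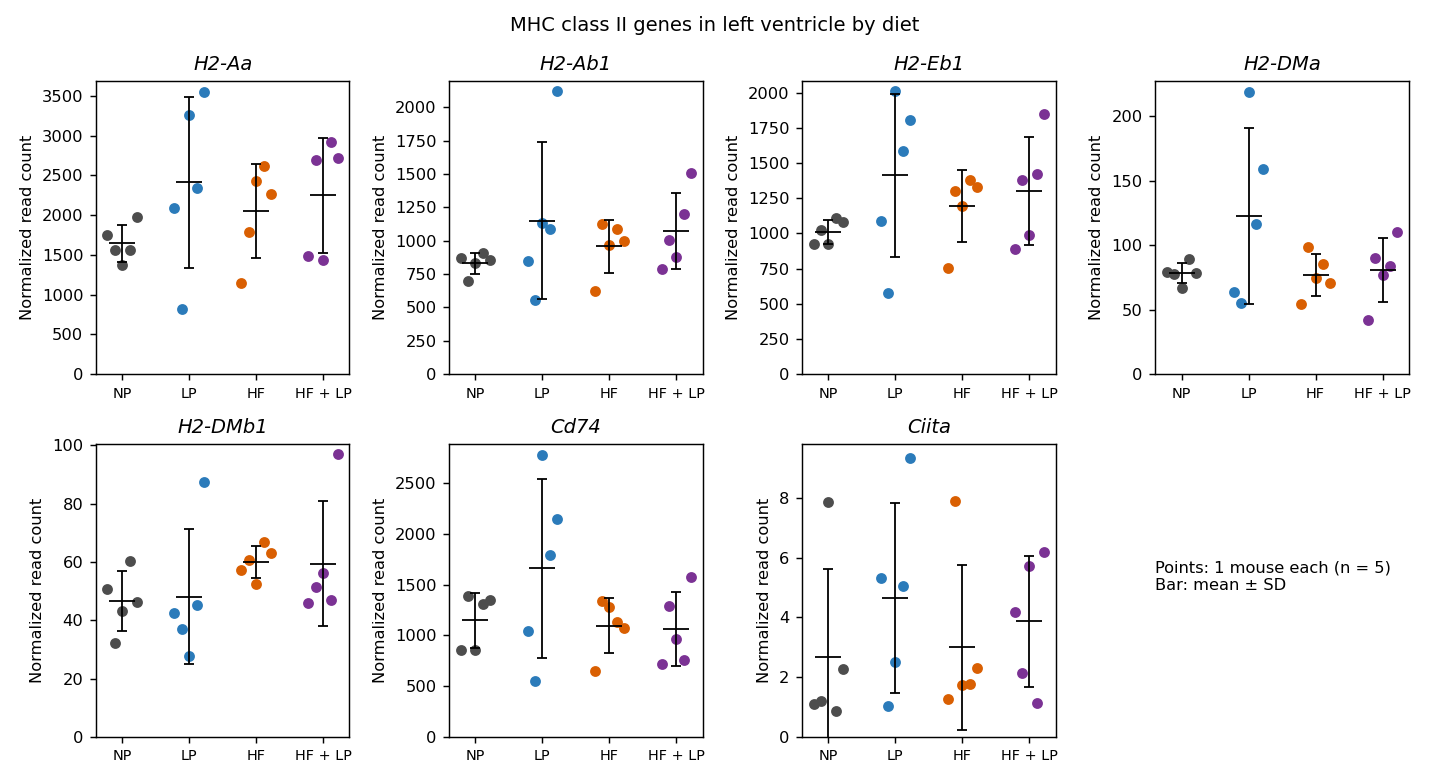
Normalized read counts (y axis, from 0) of the 7 class II genes in each mouse (points) by diet group, with the mean and SD of 5 mice (bars). For H2-Aa, NP mice lie between 1372 and 1978 and LP mice between 825 and 3550, and no gene separates any pair of groups.

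H2-Aa read 1560, 1372, 1755, 1565, and 1978 normalized counts in NP mice 4, 5, 3, 6, and 8. In LP mice 2, 13, 20, 15, and 5 it was 2083, 3260, 3550, 2346, and 825. In HF mice 1 to 5 it was 1152, 1788, 2435, 2621, and 2259, and in HF + LP mice 1 to 5 it was 1486, 2694, 1430, 2914, and 2715. LP mouse 20 was the highest of all mice and LP mouse 5 the lowest, so that a single diet held both ends of the range. The groups overlapped, with HF mouse 1 below every NP mouse and HF mice 3 to 5 above every NP mouse.

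H2-Ab1, its beta chain partner, read 698, 828.7, 868, 904, and 852 in the NP mice, in the same order of animals. It read 849, 1135, 2117, 1085, and 553 in LP, 624, 1124, 966, 1089, and 995 in HF, and 791, 1001, 874, 1199.5, and 1504 in HF + LP. LP mouse 20 again was highest and LP mouse 5 lowest. Within a mouse, the ratio of H2-Aa to H2-Ab1 lay between 1.49 and 2.87, with medians of 2.02 in NP and 2.16 in LP mice and of 2.27 in HF and 1.88 in HF + LP mice.

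H2-Eb1 read 1025, 923, 928, 1106, and 1080 in NP and 1088, 2010, 1805, 1586, and 575 in LP. It read 751, 1303, 1196, 1378, and 1332 in HF and 889, 1379, 985, 1419, and 1847 in HF + LP. HF mouse 1 stood below the other HF mice, and LP mouse 13 was the highest of all. Its usual partner, the alpha chain gene H2-Ea, was not analysed here.

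Cd74 lies on chromosome 18 (60803848 to 60812652, plus strand) and overlaps the microRNA gene Mir5107. It read 1383, 851, 856, 1307, and 1345 in NP and 1039, 2776, 2147, 1794, and 547 in LP. It read 646, 1342, 1280, 1136, and 1074 in HF and 716, 1290, 965, 759, and 1574 in HF + LP. LP mice 13, 20, and 15 were above every other mouse, and LP mouse 5 was again lowest. The chaperone stood below H2-Aa in every mouse, at 0.261 to 0.887 of its normalized count.

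H2-DMa, a chain of the peptide-exchange dimer, read 77.6, 66.9, 79.2, 89.5, and 78.0 in NP and 63.9, 218, 159, 116, and 55.4 in LP. It read 54.7, 98.8, 74.2, 85.4, and 70.6 in HF and 41.7, 89.7, 77.0, 84.0, and 110 in HF + LP. LP mice 13, 20, and 15 were again above all others. The lowest value was that of HF + LP mouse 1.

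H2-DMb1, the other chain of that dimer, read 32.2, 43.3, 50.6, 60.2, and 46.4 in NP and 42.6, 27.7, 87.5, 45.4, and 36.9 in LP. It read 57.2, 60.6, 52.4, 66.9, and 62.9 in HF and 45.8, 51.3, 56.1, 47.0, and 96.9 in HF + LP. LP mouse 13, which had the highest H2-DMa and Cd74 of all mice, had the lowest H2-DMb1. The ratio of H2-DMa to H2-DMb1 was 7.89 in that mouse, against 0.909 to 2.56 in the others. Summed with its neighbor H2-DMb2, the value of LP mouse 13 was 45.3, above the 38.2 of NP mouse 4, and that of LP mouse 20 was 204.

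Ciita was barely covered at this depth. It had 1 to 13 raw reads per library and 70 in all, with fewer than 10 reads in 19 libraries, and it did not pass the filter on low counts. The gene lies on chromosome 16 (10480059 to 10528418). Its normalized counts were 0.860 to 7.87 in NP (median 1.19), 1.03 to 9.33 in LP (5.04), 1.27 to 7.91 in HF (1.76), and 1.12 to 6.19 in HF + LP (4.17). The groups overlapped throughout, and no difference between diets was detected on these few reads. Fitted without the filter, the log2 difference between LP and NP was 0.86 with an SE of 0.67 (edgeR, adjusted p = 0.826).

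A gene was called when edgeR's quasi-likelihood test gave an adjusted p under 0.01, with a mean normalized count over 50, and 6 of the 7 members could be tested. In HF compared to NP, the comparison that asks what the fat-rich diet does, 4 members were higher and 2 lower, and 0 of 6 were called, where 0.264% of the 13991 genes tested were called. The log2 fold changes were 0.36 for H2-DMb1, 0.32 for H2-Aa, 0.24 for H2-Eb1, 0.21 for H2-Ab1, −0.03 for H2-DMa, and −0.07 for Cd74, with SEs of 0.26 to 0.33. Their median was 0.22 (0.35 without HF mouse 1), beside −0.00108 over all tested genes, and adjusted p-values were 0.645 to 0.986. The 95% intervals together ran from −0.75 to 0.94, and changes of that size lie within them. No member had non-overlapping groups (0 of 7, where 5.67% of tested genes had). At an unadjusted p under 0.05 none of the 6 passed either.

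In HF + LP compared to HF, which asks what lowering protein does on the fat-rich diet, the members lay close to 0. Log2 fold changes lay between −0.05 for Cd74 and 0.16 for H2-Ab1, with a median of 0.10 beside 0.02 over all tested genes. The direction depended on single mice, since the median was −0.05 without HF + LP mouse 5, −0.02 without HF mouse 1, and 0.24 without HF + LP mouse 1, and every tested member except H2-Ab1 changed sign when some mouse was left out. Of the members 0 of 6 were called, beside 0% of all genes, and the adjusted p of each was 0.999. The 95% intervals ran from −0.73 to 0.75. Groups did not overlap for 0 of 7 members and for 1.18% of tested genes.

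In LP compared to NP all 6 tested members were higher. The log2 fold changes were 0.66 for H2-DMa (SE 0.30), 0.55 for H2-Aa (SE 0.30), 0.53 for Cd74 (SE 0.33), 0.48 for H2-Eb1 (SE 0.26), 0.47 for H2-Ab1 (SE 0.26), and 0.05 for H2-DMb1 (SE 0.27). The median was 0.51 beside 0.02 over all tested genes. 0 of 6 were called, as were 0% of all genes, and edgeR's adjusted p-values were 0.671 to 0.989. H2-DMa alone passed an unadjusted p under 0.05, which makes 1 of 6 members higher at that level beside 5.02% of all tested genes (703 genes). Single LP mice moved these values, with H2-DMa at 0.33, Cd74 at 0.25, and H2-Eb1 at 0.31 without LP mouse 13. Without LP mouse 20, H2-Ab1 stood at 0.12, H2-Aa at 0.37, and H2-DMb1 at −0.31. 0 of 7 members separated the groups, where 0.786% of genes did. Without single LP mice the median was 0.32 (without LP mouse 13) to 0.72 (without LP mouse 5). LP mice 13 and 20 had the highest class II sums of all mice, so that leaving out both, a setting chosen after marker levels had been seen, was bound to lower the LP values. The median was then −0.01, 2 members were higher and 4 lower, and values ran from −0.17 to 0.09.

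Compared to LP, HF + LP had 5 members lower and 1 higher. Cd74 differed by −0.65 (SE 0.33) and H2-DMa by −0.62 (SE 0.30), with edgeR adjusted p-values of 0.337 and 0.317, and the median was −0.11. 0 of 6 were called beside 0.100% of all genes, and 0 of 7 separated the groups beside 1.87%. Without single LP mice the median was −0.32 (without LP mouse 5) to 0.02 (without LP mouse 20), and without both LP mice 13 and 20, which lowers the LP values by construction, it was 0.31, with 5 members higher and 1 lower. HF + LP compared to NP, which differs in both nutrients, gave 5 members higher and 1 lower with a median of 0.36, which was 0.15 without HF + LP mouse 5, and H2-Aa differed most, by 0.45 (SE 0.30). 0 of 6 were called beside 0.0286% of all genes, and 0 of 7 separated the groups beside 2.57%. HF + LP shares its mice with both comparisons, and NP and LP are shared with those above, so the directions are not independent of each other.

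**Figure D2:**
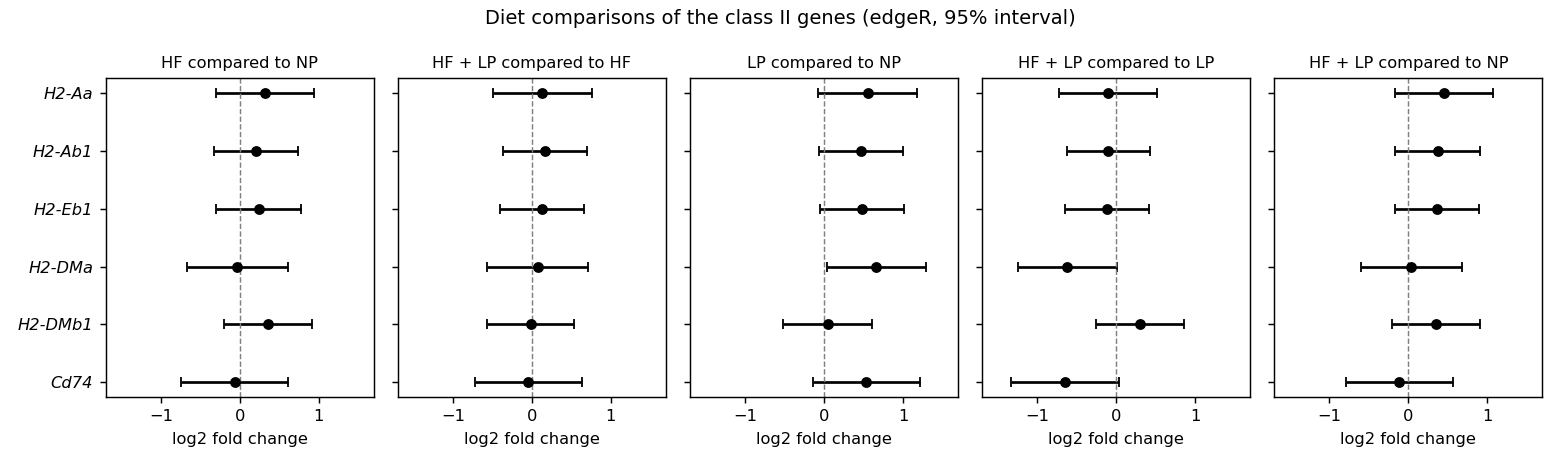
Log2 fold change (x axis, points) with its 95% interval (bars) of the 6 tested class II genes in 5 diet comparisons, from edgeR. All intervals but that of H2-DMa in LP compared to NP (0.031 to 1.29) include 0, and no gene passed the adjusted threshold.

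With all 4 groups, fat content over both protein contents gave a median of 0.06, with 4 members higher and 2 lower. Cd74 and H2-DMa stood at −0.36 and −0.33 and H2-DMb1 at 0.33, and 0 of 6 were called where 1.00% of all genes were called. Protein restriction over both fat contents gave a median of 0.31 with 6 of 6 higher, 0 called beside 0% of all genes, and adjusted p-values of 1.00. Without LP mice 13 and 20, the 2 highest in class II, these medians were 0.27 and 0.05, and without LP mouse 5, the lowest, they were −0.04 and 0.40. The interaction, the difference between the effect of low protein on the high-fat and on the normal diet, was negative for 6 of 6 with a median of −0.39, and 0 of 6 were called beside 0% of genes (lowest adjusted p = 0.832). Its median was 0.06 without LP mice 13 and 20 and −0.59 without LP mouse 5. When the model also held the number of the library name, the medians were 0.25 in HF compared to NP, 0.10 in HF + LP compared to HF, 0.56 in LP compared to NP, −0.17 in HF + LP compared to LP, and 0.40 in HF + LP compared to NP.

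The spread between mice of the class II genes was not of the same size in the 4 diet groups. The SD of log2 CPM, the count scaled to library size, as a median over the 6 tested members, was 0.17 in NP and 0.78 in LP, and on the fat-rich diets it was 0.35 in HF and 0.46 in HF + LP. Over the 10159 genes averaging more than 50 normalized reads the median was 0.196, 0.277, 0.215, and 0.235 in the same order. By these medians the members varied about as much as other genes in NP, and more in the other groups. Single members departed from this. In NP their SDs ran from 0.12 for H2-Eb1 to 0.36 for Cd74, and in HF that of H2-DMb1 was 0.13, under the median of all genes. The medians over all genes were not matched for level. The SD in LP was 6.04 times that in NP for H2-Eb1, 5.70 times for H2-DMa, 4.90 times for H2-Ab1, 4.21 times for H2-Aa, 2.60 times for Cd74, and 1.85 times for H2-DMb1. The SD left after removing diet means exceeded that of 96.8% of genes of like level for H2-Aa, 95.9% for Cd74, and 63.0% for H2-DMb1. These spreads are descriptions and were not tested. Summed over the 7 genes, LP mouse 20 (9875 normalized reads) and LP mouse 13 (9430) ranked first and second of the 20 mice, and LP mouse 5 (2593) ranked last. Of the 6 tested members, LP mouse 20 and HF + LP mouse 5 had 6 and LP mice 13 and 15 had 5 above every NP mouse, while LP mouse 5 had 5 below every NP mouse. HF mouse 1 also had 5 below every NP mouse, whereas HF mice 2, 4, and 5 each had 4 above.

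The members were then compared with each other across mice, a comparison added after their values had been seen. For each of the 10 pairs among H2-Aa, H2-Ab1, H2-Eb1, H2-DMa, and Cd74, Pearson's r of log2 CPM over 20 mice was between 0.68 and 0.93 and Spearman's rho between 0.61 and 0.94. Permutation tests (two-sided, 100000 resamples, Benjamini-Hochberg over 15 pairs) gave adjusted p-values of 3e-05 to 0.00173 for r, of which 3e-05 follows from 1e-05, the smallest p they can give, and 3.75e-05 to 0.00771 for rho. H2-Aa and H2-Eb1, whose promoters are shown above, were the closest pair (r = 0.93, rho = 0.94, and r = 0.88 without LP mouse 5 and HF mouse 1, the 2 mice farthest out in H2-Aa). H2-DMa and Cd74 followed each other at r = 0.89 (rho = 0.82), and at 0.80 without LP mice 13 and 20, again the 2 farthest mice. With diet means removed, r of the 10 pairs was 0.73 to 0.93, and without LP mice 13 and 20 it was 0.61 to 0.94. The 5 pairs with H2-DMb1 had r of 0.09 to 0.59 (rho 0.13 to 0.51), or 0.25 to 0.66 with diet means removed and 0.30 to 0.68 without LP mice 13 and 20. Of these only the pair with H2-Ab1 passed (r = 0.59, permutation adjusted p = 0.00945, rho = 0.51), and its r was 0.39 without LP mice 20 and 5, 0.66 with diet means removed, and 0.68 without LP mice 13 and 20. H2-DMa and H2-DMb1, the chains of 1 dimer, had r = 0.09 (rho = 0.27, adjusted p = 0.707 for r by permutation), and 0.42 without LP mice 13 and 20.

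**Figure D3:**
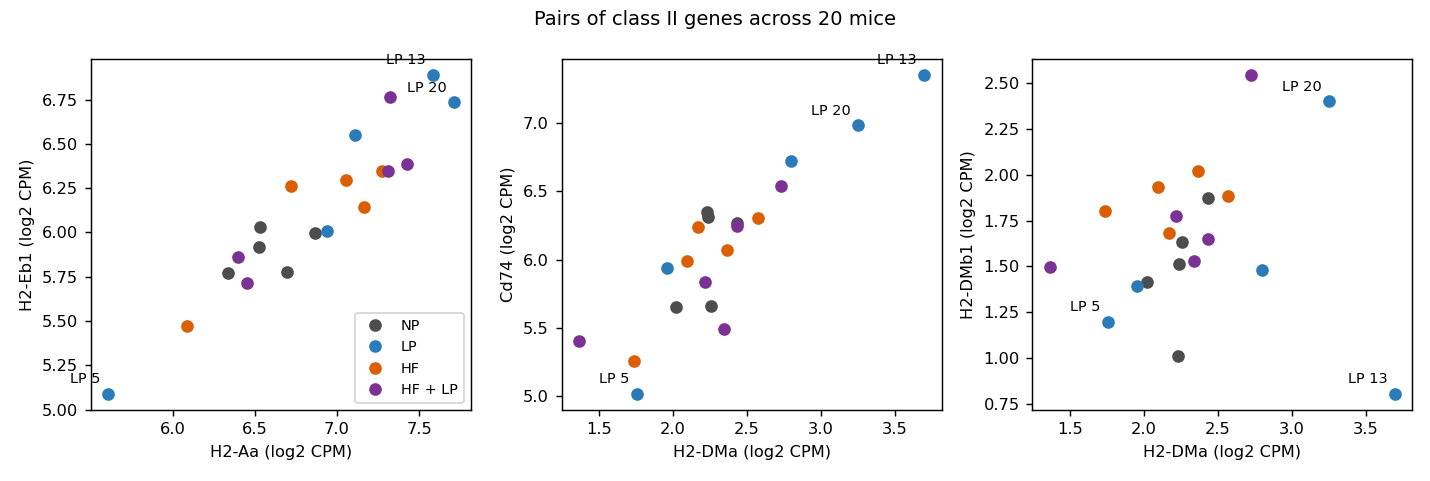
Each point is 1 of 20 mice, coloured by diet, and both axes give the log2 CPM of a class II gene. H2-Aa with H2-Eb1 (r = 0.93) and H2-DMa with Cd74 (r = 0.89) lie along a line, whereas in H2-DMa with H2-DMb1 (r = 0.09) LP mouse 13 stands alone at the lower right.

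Ciita, on its few reads, was compared with the 6 tested members in the same way. Pearson's r was 0.22 for H2-Aa, 0.25 for H2-DMa, 0.33 for Cd74, 0.35 for H2-Eb1, 0.35 for H2-DMb1, and 0.51 for H2-Ab1, and Spearman's rho was 0.21 to 0.37. 0 of 6 passed by permutation (100000 resamples, adjusted over 6), and the pair with H2-Ab1 had the lowest p (p = 0.0185, adjusted p = 0.111). Without LP mouse 20 and HF mouse 2, the mice farthest out in Ciita, that r was 0.30 and the others 0.04 to 0.23. With diet means removed, r was 0.14 to 0.46. At 1 to 13 reads per library, counting error alone is large for Ciita.

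Immune cell markers moved with these levels in some mice and not in others. In bulk tissue a larger share of class II-bearing cells cannot be told from more class II RNA per cell. In LP mouse 20, the summed normalized count of 6 T cell markers was 8882, where it was 28.6 to 93.2 in the other 19 mice, and that of 7 B cell markers was 2861, where it was 125 to 690 in the others. Most of the B cell sum of LP mouse 20 came from 1 gene, Ighm (2683). LP mouse 13 held the highest sum of 10 macrophage markers (7134, with the others between 2745 and 6857), of adipocyte markers (28980), and of atrial markers (245765), and LP mouse 5 held the lowest macrophage sum. HF + LP mouse 5, which ranked 3 of 20 in class II, had sums of 4576 for macrophage, 292 for B cell, and 40.2 for T cell markers. HF mouse 1, which ranked 19, had 4714 for macrophage markers and the highest sum of resident macrophage markers (1620). The second highest atrial sum (204494) was in HF mouse 1, whose class II levels were low. Dendritic cell markers were 421 to 735 in all mice, highest in LP mouse 20. The cardiomyocyte markers were 554387 to 893829 in all mice, so each library held heart muscle. Atrial sums ran from 970 to 245765, and whether each sample held left ventricle alone was not tested. LP mouse 13 had the lowest cardiomyocyte sum (554387), and that of LP mouse 20 (569443) was above only LP mouse 13 and HF mouse 3. HF + LP mouse 5, next after them in class II, had the second highest (838954) and LP mouse 15 stood at 735852. The endothelial sums of LP mice 13 and 20 (5288 and 5523) were the lowest of all, and that of HF + LP mouse 5 was 8838. Of the 7 cardiomyocyte markers, 1 was called for fat content over both protein contents, beside 1.00% of all genes. This was the alpha myosin heavy chain gene Myh6, which fell by 0.55 on the log2 scale (SE 0.09, edgeR adjusted p = 0.00252), a call kept under 28 of 28 alternatives. LP mouse 13 also stood apart over all expressed genes, with a median r of 0.908 with its group, against 0.944 to 0.979 for the other mice. The part of these markers in the class II levels was not tested.

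Macrophage markers were compared between the same diets. Their sum was 4714 to 6857 in HF and 3650 to 5088 in NP, and in HF compared to NP 10 of 10 markers were higher. Of these 8 passed an unadjusted p under 0.05, a level at which 5.17% of all tested genes were higher, 0 were called, and the median log2 difference was 0.52. Against HF, 9 markers were lower in HF + LP, with a median of −0.33. The 4 markers of resident macrophages had medians of 0.42 and −0.42 in these comparisons. The corresponding class II medians were 0.22 and 0.10, the latter changing sign when single mice were left out, and whether the lists differ was not tested. In LP compared to NP, where the class II median was 0.51, macrophage markers had a median of 0.14 (9 of 10 higher, 0 at an unadjusted p under 0.05, and −0.04 without LP mouse 13). B cell markers had a median of 1.19 there, with 7 of 7 higher and 3 at an unadjusted p under 0.05, a level at which 5.02% of all tested genes were higher. Without LP mouse 20 the B cell median was 0.70 with 0 at that level. The 2 T cell markers tested had a median of 5.45, which was 0.66 without LP mouse 20, and the 7 cardiomyocyte markers were all lower (median −0.20, and −0.11 without LP mouse 13). Without both LP mice 13 and 20 the cardiomyocyte median was −0.02, with 3 higher and 4 lower. In HF compared to NP 7 of 7 cardiomyocyte markers were also lower (median −0.20), 3 at an unadjusted p under 0.05, a level at which 7.91% of all tested genes were lower. The 4 dendritic cell markers tested had a median of 0.34 in LP compared to NP, which was 0.13 without LP mouse 13 and 0.09 without LP mouse 20. Medians there were 2.25 for adipocyte, 1.36 for atrial, and 0.61 for erythroid markers, beside 0.08 each for endothelial and fibroblast markers. None of these markers was called in LP compared to NP, where 1 of 7 B cell, 1 of 2 T cell, and 2 of 4 dendritic cell markers had a mean over 50 and could have been. For fat content over both protein contents, 1 of 10 macrophage markers was called, beside 1.00% of all genes. It was the fractalkine receptor Cx3cr1 (0.83, SE 0.16, edgeR adjusted p = 0.00636). The call was lost under 14 of 28 alternatives, with adjusted p-values of 0.0101 to 0.0206 and log2 differences of 0.73 to 0.85.

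The rest of the pathway was described from fixed lists. Of the class II relatives, H2-DMb2 and H2-Ob could be tested, and H2-Oa, H2-Ob, and H2-DMb2 all stood at low levels. H2-Ob, a chain of the inhibitor of H2-DM, and H2-DMb2, a second beta chain of H2-DM, differed by 0.50 and 0.62 in HF compared to NP and by 0.86 and 0.31 in HF + LP compared to HF, with edgeR adjusted p-values of 0.750 and 0.999 for both genes. The mean of each lies under the 50 normalized reads that a call requires, so neither could be called. In LP compared to NP they stood at 0.99 and 1.35 (edgeR adjusted p = 0.681 and 0.650), and the list's sum was 196 in LP mouse 20 against 25.2 to 45.9 in the other LP mice.

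In the endosomal processing list 1 of 8 genes was called, in HF compared to NP (beside 0.264% of all genes) and for fat content (beside 1.00%). Ctss, the protease cathepsin S that trims the invariant chain, read 270, 302, 273, 299, and 299 normalized counts in NP mice 4, 5, 3, 6, and 8 and 390, 633, 515, 626, and 630 in HF mice 1 to 5. These groups did not overlap, which was so for 5.67% of tested genes. It rose in HF compared to NP by 0.95 on the log2 scale (SE 0.16, edgeR adjusted p = 0.00489). The call was lost without any 1 of the NP mice and without HF mouse 2, 4, or 5, with adjusted p-values of 0.0150 to 0.0208 and log2 fold changes of 0.91 to 0.97. For fat content over both protein contents it rose by 0.61 (SE 0.12, edgeR adjusted p = 0.00519). That call was lost with the number in the library name in the model and without NP mouse 3, 4, or 8, LP mouse 15, HF mouse 2, 4, or 5, or HF + LP mouse 4, with adjusted p-values of 0.0104 to 0.0127 and log2 differences of 0.56 to 0.61. Compared to HF, HF + LP stood at −0.48 (SE 0.16, edgeR adjusted p = 0.580). Of the 8 processing genes, 8 were higher in HF and 1 was called, with a median of 0.16, and in HF + LP compared to HF 3 were higher and 5 lower, with a median of −0.13. The proteases Ctsl and Ctsd differed by 0.32 and 0.19 in HF. Ctss is also a macrophage gene, and the diet differences of macrophage markers are given above. Whether Ctss followed these markers from mouse to mouse was not tested. The part of Ctss in the class II levels was not tested either.

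Among the factors that bind class II promoters (RFX, NF-Y, and CREB subunits), 0 of 7 were called in either comparison and medians were 0.09 and 0.01. Nfyc, a subunit of NF-Y, stood at −0.40 in HF compared to NP (SE 0.14, edgeR adjusted p = 0.174), and Rfxank at 0.23. In LP compared to NP Rfxank stood at 0.39 (edgeR adjusted p = 0.625). In the interferon gamma pathway, which induces Ciita, 7 genes were tested, 6 of them above the mean of 50 normalized reads, and 0 were called, with medians of 0.09 in HF compared to NP and −0.18 in HF + LP compared to HF. Among genes of costimulation and turnover, 4 were tested, but only 1 had the mean of over 50 normalized reads that a call requires, and it was not called. March1, the ubiquitin ligase that removes class II from the surface, stood at 0.77 in HF compared to NP (SE 0.27, edgeR adjusted p = 0.188), and Cd86, a costimulatory ligand, at 0.28 (edgeR adjusted p = 0.765), both under that mean.

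MHC class I genes, which present peptides from the cytosol, served for comparison. All 9 stood higher in HF than in NP, with a median of 0.53. Of these 5 passed an unadjusted p under 0.05, a level at which 5.17% of all tested genes were higher. 0 were called, beside 0.264% of all genes, where 8 had a mean high enough for a call. All 9 stood lower in HF + LP than in HF, with a median of −0.76, and 6 passed an unadjusted p under 0.05, a level at which 2.43% of all tested genes were lower, but 0 were called. B2m, the light chain of class I, stood at 0.61 (SE 0.18) and −0.83 (SE 0.18), with edgeR adjusted p-values of 0.107 and 0.191, and the peptide transporter Tap1 at 0.62 and −0.94. Class II medians in the same comparisons were 0.22 and 0.10, and the latter was −0.05 to 0.24 when single mice were left out. The summed class I counts were 15650 to 28712 in HF and 11343 to 15939 in HF + LP, whereas the summed class II counts were 3286 to 6377 and 3973 to 7853. In LP compared to NP the order was the other way round over all mice, with medians of 0.12 for class I and 0.51 for class II. The latter was 0.32 to 0.72 when single mice were left out, and −0.01 without both LP mice 13 and 20. Whether the classes differ in any of these comparisons was not tested.

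**Figure D4:**
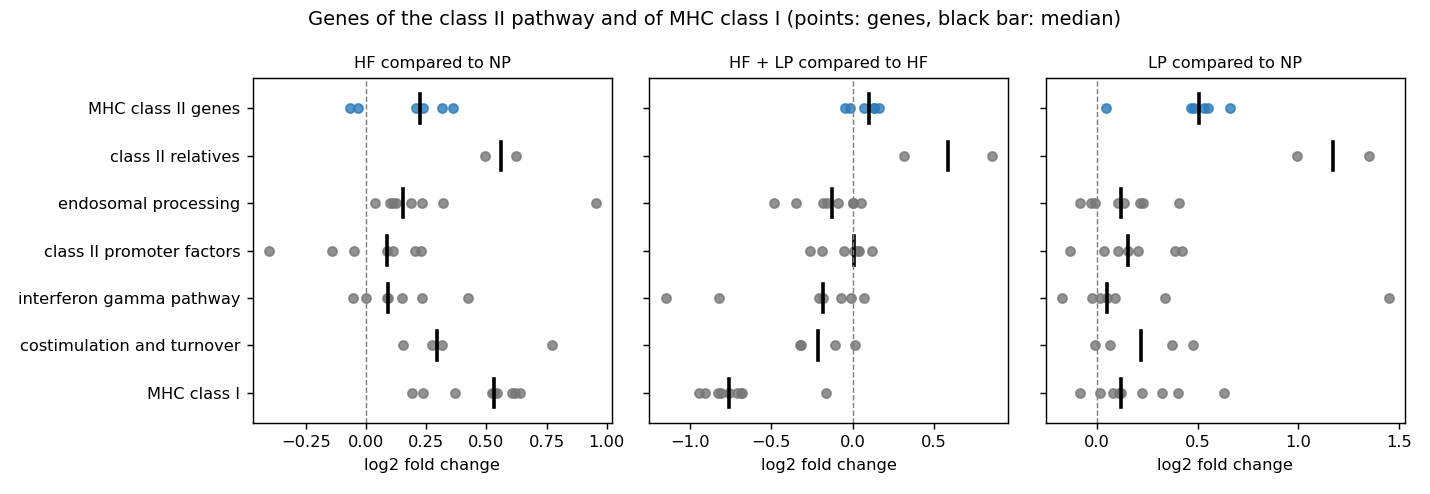
Log2 fold change (x axis, points are genes, black bars are medians) of the class II genes (upper row) and of related lists in HF compared to NP, HF + LP compared to HF, and LP compared to NP. The class I median goes from 0.53 to −0.76 between the first and the second comparison, where the class II median goes from 0.22 to 0.10 (−0.05 to 0.24 without single mice).

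Among the 10153 other genes averaging more than 50 normalized reads, the genes whose log2 CPM values were most like the mean of the tested class II genes over 20 mice were Il2rg (r = 0.82), Cnp (0.82), Cfp (0.81), Sgpl1 (0.77), Rac2 (0.77), Hipk1 (0.76), Ywhab (0.75), Tmem176a (0.74), Tbc1d10c (0.72), and Ifi30 (0.72). Il2rg encodes the common gamma chain of lymphocyte cytokine receptors, Cfp is properdin of the complement system, Rac2 is a GTPase of blood cells, and Ifi30 is the thiol reductase of antigen processing, a member of the processing list. Without LP mice 13 and 20, r of these genes was 0.49 for Tbc1d10c and 0.61 to 0.81 for the others. The values share libraries and depth and are given as a description.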

How the data were processed

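From left ventricles the authors made QuantSeq 3′ mRNA libraries, which were read at 75 bp on a NextSeq 500 and aligned with BlueBee. The deposited values are raw counts of reads for each Ensembl gene, without normalization. The submitters' processing notes name GRCm38 and DESeq2 1.22.2. The counting program is not given in the sources used here. Symbols were matched for 15917 of 15956 genes, and coordinates are from GENCODE M21.

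The main test was that of edgeR 4.0.16 in R 4.3.3 (filterByExpr by diet, 13991 genes kept, TMM, quasi-likelihood fit of all 20 libraries, Benjamini-Hochberg adjustment over all tested genes). Log2 CPM values used a prior count of 2. SEs were derived from the F statistic. Its p-values set a difference between groups against the spread between mice within groups. That spread was estimated over all 4 diets together and moderated across genes, so a wider spread in 1 diet was not modelled apart. The analysis was tested on simulated data. No pair of libraries agreed within counting noise. Named genes were the members, the smallest p-values of each list (up to 3) in HF against NP and in HF + LP against HF, any call, and the 10 most similar genes. Not every gene that the rule names is given here. Rfxank, H2-Ob, and H2-DMb2 in LP compared to NP follow from these names. Members and lists were chosen with earlier results of these data known. Alternatives were RLE size factors, DESeq2 1.42.0, other filters and thresholds, the number in the library name, only the groups compared, a block by animal number, and leaving out single mice. For the correlations with Ciita they included a prior count of 0.5 and RLE size factors.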

Additional observations from a re-analysis of the deposited data

Results flagged for a closer look

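In groups of 5 mice, 100 sets of values (7 genes and 18 summed lists in 4 diets) were searched for a mouse whose gap to the next exceeded 0.71 of the group's range. Of these 11 were found. The chance rate of about 1 in 20 holds for independent sets, whereas these sets overlap (a summed list and its genes). No excess over chance can therefore be read from the count.

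Among the members, HF mouse 1 was low in H2-Eb1 (751, the others 1196 to 1378) and in the sum of the 7 class II genes (3286, the others 5725 to 6377). HF + LP mouse 5 was high in H2-DMb1 (96.9, the others 45.8 to 56.1). For Ciita, NP mouse 5 (7.87, the others 0.860 to 2.26) and HF mouse 2 (7.91, the others 1.27 to 2.301) were high, each on 6 reads.

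LP mouse 20 was high in T cell markers (8882, the others 32.8 to 83.7), B cell markers (2861, the others 196 to 690), class II relatives (196, the others 25.2 to 45.9), and costimulation and turnover genes (260, the others 101 to 122). HF + LP mouse 3 was high in atrial markers (87124, the others 970 to 21307), and NP mouse 3 was low in the interferon gamma pathway (5160, the others 5467 to 5524). No cause was tested for any of these.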

How the results depend on the processing

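The count of members called stayed 0 in each of the 180 combinations of comparison and alternative, which changed 1 choice at a time. Gene by gene, alternatives were run for the pairwise comparisons only. The median log2 fold change of the members moved by more than the spread between mice in LP compared to NP, to −0.0071 without LP mice 13 and 20, and in HF + LP compared to LP, to 0.88 with the animal number as a replicate block. That block rests on mice 2 and 5 of each group, which are different animals sharing a number. Deviations from group means correlated at −0.02 and 0.38 for these pairs, at −0.48 to 0.13 in HF compared to NP, at −0.28 to 0.15 in HF + LP compared to NP, and at −0.55 to 0.48 in HF + LP compared to HF, which shares all 5 numbers. Not every pair exceeded 0.1 in any of these, so the numbers were not taken to pair the mice. In HF + LP compared to LP, the block turned H2-Aa to 1.03, H2-Eb1 to 1.00, Cd74 to 0.90, H2-Ab1 to 0.83, and H2-DMa to 0.74, with edgeR adjusted p-values of 0.0325 for H2-Aa, 0.0380 for H2-Eb1, and 0.0454 for Cd74, under 0.05 but not under 0.01. It also turned Cd74 to 0.19 and H2-DMa to 0.020 in HF compared to NP, and Cd74 to 0.073 in HF + LP compared to NP. With the block 0 genes of all were called in HF compared to NP, 0 in HF + LP compared to HF, 26 in HF + LP compared to LP, and 9 in HF + LP compared to NP. The Ctss call was lost in HF compared to NP (1.04, edgeR adjusted p = 0.174). LP compared to NP shares only mouse number 5, so no block was fitted there.

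Without LP mice 13 and 20, LP compared to NP turned to −0.0070 for H2-Ab1, −0.0071 for H2-DMa, −0.17 for H2-DMb1, and −0.037 for Cd74, and HF + LP compared to LP turned to 0.36 for H2-Aa, 0.37 for H2-Ab1, 0.27 for H2-Eb1, and 0.036 for H2-DMa. In HF compared to NP, H2-DMa turned to 0.022 with the library name's number as a factor and to 0.0076 with only the groups compared.

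Leaving out each mouse in turn gave medians of 0.17 to 0.35 in HF compared to NP, −0.05 to 0.24 in HF + LP compared to HF, 0.32 to 0.72 in LP compared to NP, −0.32 to 0.02 in HF + LP compared to LP, and 0.15 to 0.45 in HF + LP compared to NP. Signs turned in HF compared to NP for H2-DMa (−0.13 to 0.064) and Cd74 (−0.16 to 0.072). In HF + LP compared to HF they turned for H2-Aa (−0.018 to 0.25), H2-Eb1 (−0.031 to 0.24), H2-DMa (−0.070 to 0.24), H2-DMb1 (−0.26 to 0.067), and Cd74 (−0.23 to 0.066). In LP compared to NP H2-DMb1 turned (−0.31 to 0.20). In HF + LP compared to LP H2-Aa (−0.32 to 0.070), H2-Ab1 (−0.27 to 0.24), and H2-Eb1 (−0.31 to 0.046) turned, and in HF + LP compared to NP H2-DMa did (−0.10 to 0.20). Members related to Ciita numbered 0 to 1, with H2-Ab1 passing without NP mouse 5 (r = 0.59, permutation adjusted p = 0.0365) or HF + LP mouse 4 (r = 0.58, adjusted p = 0.0397).

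Over all genes, DESeq2 called 158 in HF compared to NP (67 higher) where edgeR called 37 (7 higher), 16 against 0 in HF + LP compared to HF, 3 against 0 in LP compared to NP, 81 against 14 in HF + LP compared to LP, 30 against 4 in HF + LP compared to NP, 389 against 140 for fat content, 1 against 0 for protein content, and 0 against 0 for the interaction. At an adjusted p under 0.05 the edgeR counts were 157, 0, 0, 45, 16, 502, 0, and 0 in that order, and with at least 10 counts in every library 7 genes were called in HF + LP compared to NP. With only the groups compared, edgeR called 61 in HF compared to NP, 0 in HF + LP compared to LP, and 2 in HF + LP compared to NP. With the number in the library name, 5 were called in HF + LP compared to LP, and 4 there without LP mice 13 and 20. Leaving out single mice gave 20 to 32 in HF compared to NP, 0 to 1 in HF + LP compared to HF (1 without HF mouse 1), 1 to 16 in HF + LP compared to LP, 2 to 9 in HF + LP compared to NP, and 79 to 198 for fat content. At an unadjusted p under 0.05, edgeR counted 677 genes in HF + LP compared to HF and 1012 in LP compared to NP.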

Other observations

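Endothelial markers (4 genes) summed to 5288 to 9861 normalized reads in all mice and fibroblast markers (4 genes) to 13387 to 20250. In HF compared to NP their median log2 differences were 0.17 and 0.29, and in HF + LP compared to HF −0.06 and −0.35, with 0 of 4 called in each. The 5 erythroid markers had medians of 0.58 and 0.24 in these comparisons and summed to 60801 to 313598, highest in HF + LP mouse 3.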
